A study of Mus musculus with 8 samples.

Results

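Cytosolic ribosomal protein genes were followed in single microglia of the mouse lumbar spinal cord. They were taken by symbol: Rpl or Rps with a number, with or without an a, x, l, y or k after it, and with or without a closing digit. Rplp0, Rplp1, Rplp2 and Rpsa were added, and symbols with -ps were left out. This gave 84 of the 27998 genes in the feature list, 32 of the small 40S subunit and 52 of the large 60S subunit. The 8 single-cell libraries came from YFP(+) cells sorted from C57BL/6 mice. Control mice carried Cx3cr1-yfp-creER/+, a knock-in that puts YFP and a tamoxifen-inducible Cre under the Cx3cr1 promoter of microglia and related macrophages. A20 cKO mice carried the same knock-in with Tnfaip3 fl/fl, floxed alleles of the gene for the NF-kappaB inhibitor A20, and were given tamoxifen to delete it. The study's methods place tamoxifen before every experiment, without naming the control mice separately. Each genotype gave 1 naive library and 1 library each at day 1, 2 and 3 after bilateral transection of the sciatic nerve, and the cords of 3 mice were pooled in each library. With 1 library per group no test between groups was possible, so the 95% intervals below cover counting error only, not the spread between mice.

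Ribosomal proteins assemble with ribosomal RNA in the nucleolus into a 40S subunit, which decodes the mRNA, and a 60S subunit, which forms the peptide bond. Their mRNAs usually begin with a C followed by a run of pyrimidines (the 5′ terminal oligopyrimidine or TOP motif), through which their translation is coupled to mTORC1 activity, and growing or dividing cells need more of them. They are among the most abundant mRNAs of microglia as of most cells, and the mouse genome holds many retroposed copies of them, some of which differ from the parent mRNA at few or no bases.

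The start windows below were chosen to show members with and without the pyrimidine run, all but Rps18 described by their levels later, from 10 bases before the RefSeq start (build GRCm38.p6) to 20 bases from it, 5′ to 3′, with the run in capitals. Rpl35 lies at chr2:39005112-39005141 (minus strand), Rpl15 at chr14:18270967-18270996 (minus), Rps18 at chr17:33955646-33955675 (minus), Rps27 at chr3:90213629-90213658 (minus), Rpl22l1 at chr3:28805498-28805527 (plus), Rpsa at chr9:120127756-120127785 (plus) and Rpl27 at chr11:101442235-101442264 (plus).
Rpl35: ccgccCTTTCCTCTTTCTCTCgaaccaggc
Rpl15: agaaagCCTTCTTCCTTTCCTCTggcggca
Rps18: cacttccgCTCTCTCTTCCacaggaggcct
Rps27: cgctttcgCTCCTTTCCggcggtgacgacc
Rpl22l1: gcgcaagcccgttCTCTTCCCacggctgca
Rpsa: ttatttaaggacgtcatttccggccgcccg
Rpl27: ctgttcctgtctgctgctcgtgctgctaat

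RefSeq starts were found for 63 members, and a run of at least 5 pyrimidines with C first, beginning at or within 5 bases of the annotated start, was present in 29 of them (46%) against 21.2% of the 27025 genes of the table. A run of at least 8 was present in 21 members (33.3%) against 5.17% of all genes. The hexamer CACGTG, which reads the same on both strands, occurred between 250 bases before and 50 bases after the start in 6 members (9.52%) against 8.09% of all genes, and TATAAA on either strand in 7 members (11.1%) against 15.7%. A missing run says only that these letters are not at the annotated start, which can lie some bases from the start used in microglia.

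A second set of sequences shows which members can be told apart by their reads. The last 30 coding bases up to the stop codon, from the GENCODE M21 transcripts on GRCm38, are given for Rps27 (chromosome 3, 90212522 to 90213651, minus strand), its near-identical copy Rps27rt (chromosome 9, 114982366 to 114982739, minus), its paralog Rps27l (chromosome 9, 66946086 to 66949516, plus), and for Rpl22 (chromosome 4, 152325742 to 152334071, plus) and its paralog Rpl22l1 (chromosome 3, 28805436 to 28807424, plus). Capitals mark the bases that differ from the parent gene.
Rps27: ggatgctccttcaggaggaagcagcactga
Rps27rt: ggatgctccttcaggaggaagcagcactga
Rps27l: ggCtgTtcAttTagAagAaagcaAcactAa
Rpl22: gatgaagaggaggaggaagacgaggattag
Rpl22l1: gatgaagaTgGTTCAgaGTCTgaggaCtaA

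Rps27rt was identical to Rps27 over all 255 coding bases, whereas Rps27l shared 79.7% of 187 aligned bases with Rps27 and Rpl22l1 shared 74.6% of 291 aligned bases with Rpl22. A search of all other genes for transcripts at least 90% identical to a member over at least 70% of their length found 43 such copies of 28 members. Cell Ranger counts a read only where it maps to 1 gene, so reads of these 28 members and their copies can be split or lost, and their levels are uncertain in that respect. Rpl6l (chromosome 10, 111125851 to 111126721, plus), which matches the symbol rule and is counted as a member, is itself annotated as a processed pseudogene, with 98.7% identity to the coding sequence of Rpl6 over 871 bases.

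Cells with at least 1000 UMIs (counted mRNA molecules), 500 genes and at most 10% mitochondrial UMIs were kept, 14626 cells in all, between 558 and 3585 per library and between 1620481 and 15817426 UMIs per library. Control day 3 and the 4 A20 cKO libraries shared cell barcodes in every pair, with 16 to 44 barcodes shared by each pair, or 5.41 to 67.6 for every 1000000 possible pairs of barcodes. For control day 1 and day 2 this rate was at most 2.40 with any library, and control naive shared 2 to 5 barcodes (4.69 to 8.83) with each A20 cKO library after injury. Ttr, a choroid plexus gene, was at 126 to 397 CPM (counts per 1000000 UMIs of the library) in those 5 libraries and had no UMI in the other 3, which allows up to 1.85, 0.213 and 0.19 CPM in control naive, day 1 and day 2. Control day 3 against control naive and A20 cKO naive against control naive therefore cross this split, and genotype or time cannot be told apart from it there. Tnfaip3 itself was at 6.83 to 25.3 CPM in the control libraries and 42.3 to 67.7 CPM in those labelled A20 cKO; the kit reads the 3′ end of an mRNA and the labels and methods do not say which exons are floxed, so this count does not check the deletion. The summed microglia markers P2ry12, Tmem119, Csf1r, Cx3cr1 and Fcrls were at 4883 to 12771 CPM, against 23.3 to 169 CPM for the oligodendrocyte list, 104 to 389 CPM for the astrocyte list and 1.85 to 83.7 CPM for the monocyte list.

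The member genes together gave between 8.31% and 12.3% of all UMIs, and the share was higher in every library after injury than in the naive library of its genotype. In control mice it was 8.31% (8.27 to 8.35) in the naive library, 8.99% (8.974 to 9.004) at day 1, 11.34% (11.33 to 11.36) at day 2 and 9.82% (9.80 to 9.84) at day 3. In A20 cKO mice it was 9.37% (9.35 to 9.39) in the naive library, 10.8% (10.7 to 10.8) at day 1, 12.29% (12.25 to 12.33) at day 2 and 12.15% (12.11 to 12.19) at day 3. Control mice thus had their highest share at day 2 and a lower one at day 3, while the day 2 and day 3 shares of A20 cKO mice lay close together and above every control library. Control day 3 shared barcodes with the A20 cKO libraries, and control naive, day 1 and day 2 stood outside that group. The step from control day 2 to day 3 therefore crosses the split. So does setting A20 cKO libraries against control naive, day 1 or day 2, and genotype or time cannot be told apart from it there.

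The 43 near-identical copies differed between libraries in another order than the members. They held 0.836% of UMIs in control naive, 0.254% at control day 1, 0.327% at day 2 and 0.445% at day 3. In A20 cKO mice they held 0.351% in the naive library and 0.73%, 0.803% and 0.815% at days 1, 2 and 3. The copies were thus highest in the 4 libraries with the fewest barcodes (579 to 930), at 6.53 to 10.1 copy UMIs per 100 member UMIs, and lowest in the 4 libraries with 2171 to 3585 barcodes, at 2.83 to 4.54. Their part in the results was not tested.

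Adding the copies to the members left a small difference between control day 1 and naive, and larger ones at the other days. The summed share became 9.15% (9.10 to 9.19) in control naive against 9.24% (9.23 to 9.26) at day 1, 11.7% at day 2 and 10.3% at day 3. For A20 cKO mice it became 9.72% in the naive library, 11.5% at day 1, 13.1% at day 2 and 13% at day 3. On the log2 scale the summed ratio for control day 1 against naive was 0.11 (0.10 to 0.12) for the members and 0.02 (0.01 to 0.02) with the copies, and for control day 2 against naive it was 0.45 (0.44 to 0.46) and 0.35 (0.34 to 0.36).

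**Figure D1:**
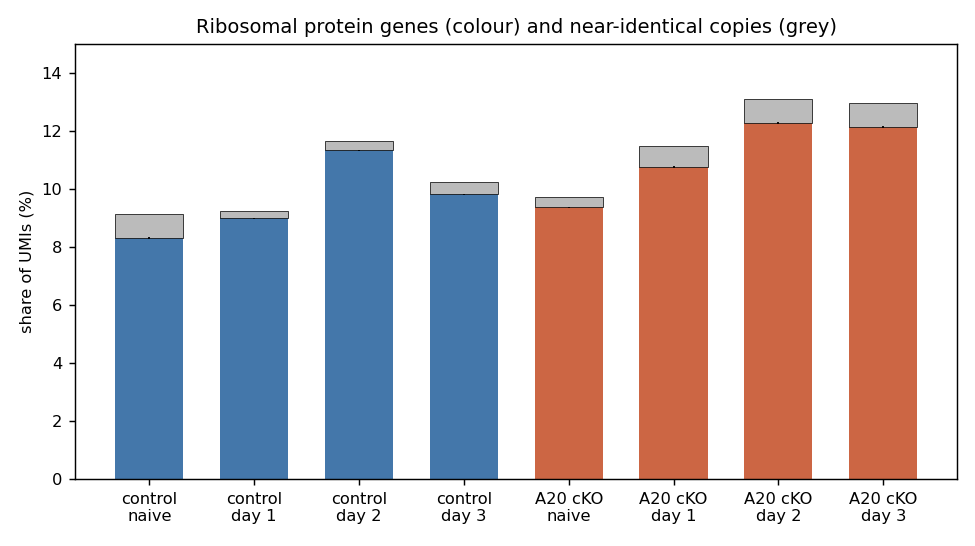
Share of all UMIs (percent, from 0) taken by the 84 ribosomal protein genes (coloured bars, with 95% counting intervals) and by 43 near-identical copies (grey, stacked on top) in the 4 control (blue) and 4 A20 cKO (orange) libraries. The grey part is widest in control naive (0.836%) and narrowest at control day 1 (0.254%), so that the stacked bars of these 2 libraries are nearly level.

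The balance between the subunits moved little. Genes of the 40S subunit (symbols Rps and Rpsa) gave 42.6% of member UMIs in control naive, 42.8% at day 1, 42.7% at day 2 and 41.9% at day 3, and 42.4% to 42.6% in the A20 cKO libraries. Control day 3 stood lowest, and its interval (41.8 to 42.0) did not overlap that of any other library. The stalk proteins Rplp0, Rplp1 and Rplp2, which recruit translation factors to the 60S subunit, gave 5.11% of member UMIs in control naive and 5.56%, 5.33% and 4.94% at days 1 to 3, against 4.46% to 4.80% in the A20 cKO libraries, all of which lay below every control library.

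Per cell, the share of UMIs from member genes had a higher median and higher quartiles in each library after injury than in the naive library of its genotype. Its interquartile range was 2.53, 1.75 and 2.18 percentage points in control naive, day 1 and day 2. It was 3.30 at control day 3, the control library that shared barcodes with the A20 cKO libraries, and 3.73 to 4.48 in those. Genotype therefore cannot be told apart from the split in most of this difference. The median cell of control naive had 7.9% (quartiles 6.75 to 9.28), against 8.79% (7.98 to 9.73) at day 1, 10.9% (9.89 to 12.1) at day 2 and 9.36% (7.71 to 11.0) at day 3. The median cell of A20 cKO mice had 8.27% (6.57 to 11.0) in the naive library, 9.66% (7.98 to 12.2) at day 1, 12.3% (10.3 to 14.04) at day 2 and 11.996% (10.04 to 13.9) at day 3. Cells with more than 14% were 0.352% of control naive, 0.241% of day 1, 6.28% of day 2 and 4.77% of day 3, and 8.35% of A20 cKO naive, 14.9% of day 1, 25.6% of day 2 and 24.4% of day 3. The lower quartile of A20 cKO naive was below that of every other library while its upper quartile was close to that of control day 3.

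**Figure D2:**
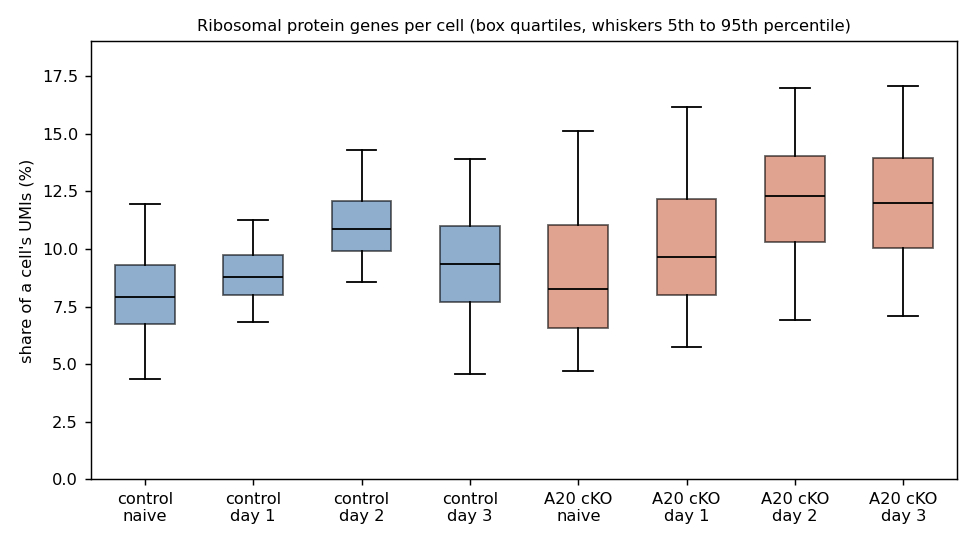
Share of each kept cell's UMIs (percent) from ribosomal protein genes, with the median (line), quartiles (box) and 5th and 95th percentiles (whiskers) of each library. The interquartile range is 1.75 percentage points at control day 1 and 4.48 in A20 cKO naive, the narrowest and the widest of the 8.

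Depth moved with the share within libraries. The rank correlation over cells between a cell's UMIs and its share, a description with the total common to both measures, was 0.321 in control naive, 0.172 to 0.399 at control days 1 to 3, 0.405 in A20 cKO naive and 0.455, 0.109 and 0.0758 at A20 cKO days 1, 2 and 3. Cells thinned to 2000 UMIs each, which left 13691 of them, kept nearly the same medians: 8% in control naive (502 cells) and 8.9%, 10.95% and 9.55% at days 1 to 3 (3225, 3480 and 1878 cells), and 8.45% in A20 cKO naive (2612 cells) and 9.85%, 12.35% and 12.05% at days 1 to 3 (830, 626 and 538 cells). The interquartile range after thinning was still widest in A20 cKO naive, at 4.55 percentage points, and narrowest at control day 1, at 1.8. Thinning leaves a cell's expected share as it was, so the thinned medians do not test the part of depth. By depth, control day 1 and naive had medians of 8.77% and 7.77% at 2000 to 3000 UMIs and 8.67% and 8.27% at 3000 to 4000. At 4000 to 6000 they had 8.81% (1442 cells) and 9.22% (41 cells). The other libraries after injury were above their naive library in each of these ranges. Below 2000 UMIs A20 cKO naive had 6.55% and days 2 and 3 had 5.996% and 4.60%.

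Dividing cells did not hold a fixed place in this range. Cells in which 3 or more of 18 core G2/M genes had a UMI (Mki67, Top2a, Cdk1 and others, with no member among them) had a median share of 11.3% at control day 2 (1076 cells), against 10.4% in cells with no UMI of these genes or of 12 core S genes (273 cells). At control day 3 the values were 9.98% (240 cells) and 8.81% (778 cells), and in A20 cKO naive 10% (95 cells) and 7.94% (1572 cells). At A20 cKO day 1 they were 10.4% (35 cells) and 9.41% (372 cells). At A20 cKO day 2 the order was the other way, 11.3% (107 cells) against 12.8% (176 cells), and at A20 cKO day 3 it was 11.3% (51 cells) against 12% (212 cells).

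These classes differ in depth, so the same comparison was made among cells with 4000 to 6000 UMIs. There the G2/M cells of control day 2 had 11.0% (425 cells) and those without core UMIs 10.7% (30 cells), while at control day 3 the values were 9.96% (115 cells) and 10.5% (95 cells) and in A20 cKO naive 9.92% (48 cells) and 10.4% (113 cells). At A20 cKO day 1 they were 9.43% (15 cells) and 12.6% (50 cells). At A20 cKO day 2 they were 10.9% (28 cells) and 14.02% (40 cells), and at A20 cKO day 3 they were 12.2% (20 cells) and 12.4% (82 cells). The higher share of G2/M cells at control day 3, in A20 cKO naive and at A20 cKO day 1 was therefore not seen at matched depth, where it was lower. The lower share at A20 cKO day 2 was also seen there.

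Of the 84 members, 81 had at least 100 UMIs in each pair of libraries compared and entered the ratios; the other 3 are paralogs of restricted expression. Rpl10l, an autosomal retrogene of Rpl10 known from testis, had 1 UMI in all libraries together, Rpl3l, the muscle paralog of Rpl3, had 2, and Rpl39l, a paralog of Rpl39 known from testis, had 151 (0.33 to 4.13 CPM) against 82642 for Rpl39. The 81 genes, all with a mean above 50 CPM, differed by a median of 1.52-fold between their highest and lowest library. Of these, 57 were highest at A20 cKO day 2 or 3 and 22 at control day 2, while 52 were lowest in control naive and 11 in A20 cKO naive. The same counts were not made over all genes, so they cannot show a trait of the members.

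Rps29, Rpl41, Rpl37a and Rpl13 were among the members with the most UMIs; a UMI stands for 1 captured 3′ end, so these levels are not divided by length. Rps29, a small zinc-binding protein of the 40S subunit (chromosome 12, 69157722 to 69159186, minus strand), was at 3929 CPM in control naive and 4081, 5040 and 3852 CPM at days 1 to 3, and at 4216 CPM in A20 cKO naive and 4569, 4967 and 5021 CPM at days 1 to 3. Rpl41, the shortest ribosomal protein, was at 1742, 1918, 2907 and 2687 CPM in control naive and days 1 to 3, and at 2399, 2935, 3490 and 3468 CPM in A20 cKO naive and days 1 to 3. Rpl41 has a near-identical copy, Gm10076, and is uncertain for that reason.

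**Figure D3:**
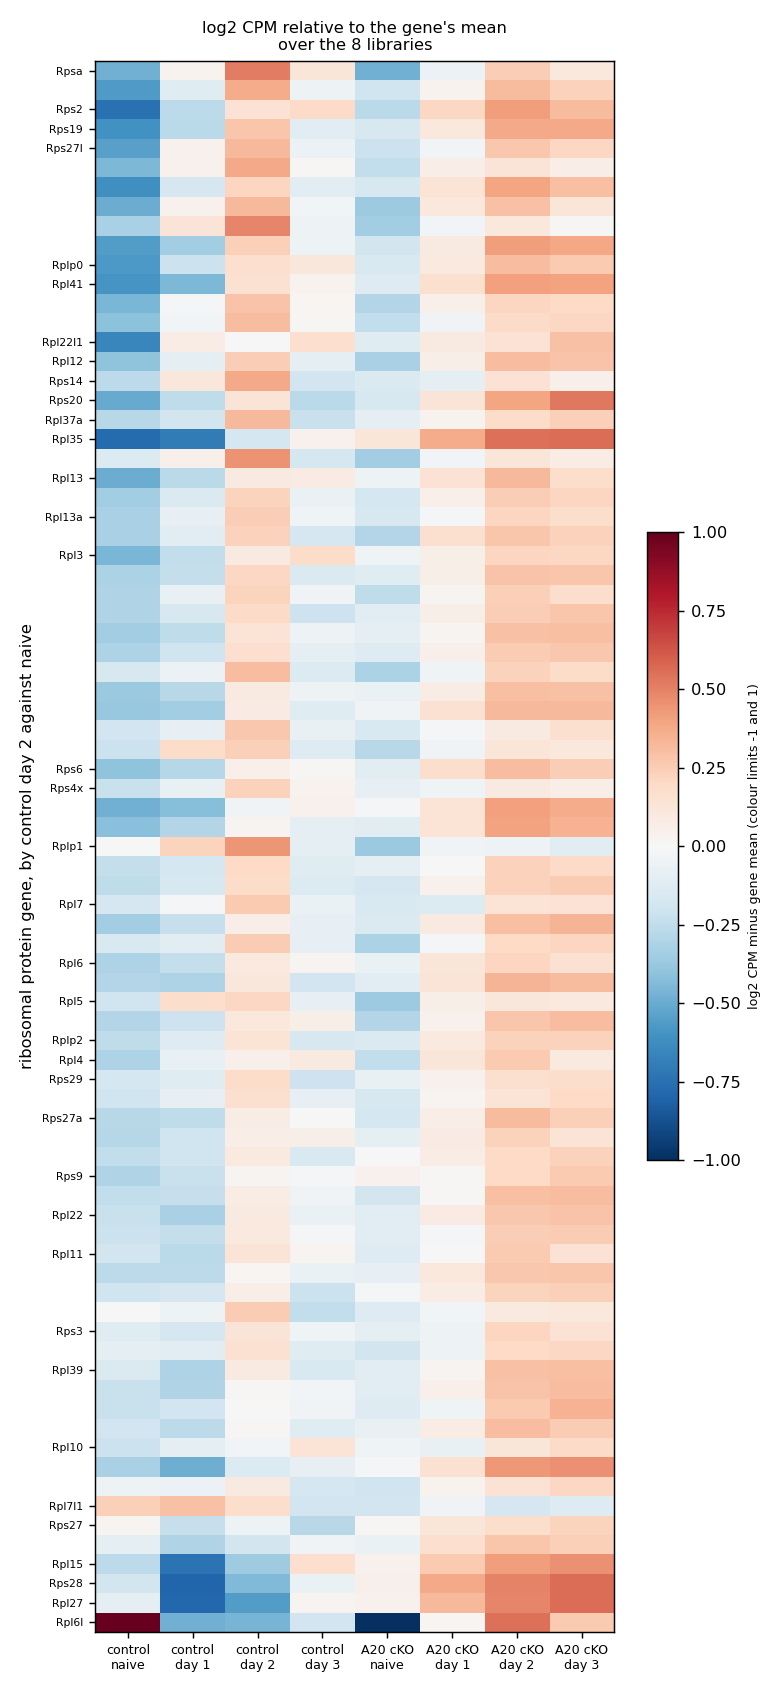
Level of 81 ribosomal protein genes (rows, with names for genes the text mentions, ordered by the ratio of control day 2 to control naive) in the 8 libraries (columns), as log2 CPM minus the gene's own mean over the libraries. Most rows are lowest (blue) in control naive and highest (red) at A20 cKO day 2 and 3 or control day 2, and Rpl6l, Rpl27, Rps28 and Rpl15 at the bottom stand apart.

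Control day 1 against control naive asks what the first day after nerve injury changed. The median member had a log2 ratio of 0.10 (0.01 to 0.19 for the member at the median) against -0.13 for the 8866 genes compared, and 63 of 81 members were above 0. Only Rpl22l1 was at least 1.5-fold higher, where 10.6% of all genes were, and Rpl6l, Rpl27 and Rps28 were at least 1.5-fold lower, where 21.4% of all genes were. With edgeR TMM factors in place of total UMIs, 10 members were at least 1.5-fold higher (15.4% of all genes) and Rpl6l alone was at least 1.5-fold lower (14.2% of all genes). The median was 0.11 in the 53 members without a near-identical copy outside the rule, which include the alike pair Rpl6 and Rpl6l, and 0.09 in the 28 with one. These medians leave out the counts of the copies. With copies summed into their members the median of all was 0.08, with 1 member at least 1.5-fold higher and 6 at least 1.5-fold lower. Genes induced by tissue dissociation (Fos, Jun, Hspa1a and others) summed to 18303 CPM at day 1 against 923 CPM in control naive, and their part in the result was not tested.

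Rpl22l1, a paralog of the 60S protein Rpl22 that can take its place, was at 239 CPM (216 to 264) in control naive and 394, 376 and 420.5 CPM at days 1 to 3. In A20 cKO mice it was at 344 CPM in the naive library and 399, 414 and 459 CPM at days 1 to 3. Control naive was thus the lowest library, and the log2 ratio was 0.72 (0.57 to 0.87) at control day 1 and 0.22 (0.12 to 0.31) at A20 cKO day 1. Rpl22 itself was at 381, 356, 474 and 426 CPM in the control libraries, so that Rpl22l1 UMIs per 100 Rpl22 UMIs were 62.6 (55.01 to 71.2) in control naive, 111 (106 to 115) at day 1, 79.2 at day 2 and 98.7 at day 3. In A20 cKO mice this number lay between 77.0 and 84.7 in all 4 libraries, and the intervals overlapped.

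Rps27l, a p53-inducible paralog of the 40S protein Rps27, was at 193 CPM in control naive and 290.1, 352 and 270.5 CPM at days 1 to 3, and at 243, 276, 339 and 325 CPM in the A20 cKO libraries. Its log2 ratio to naive was 0.58 (0.42 to 0.76) at control day 1, just outside the limit of 1.5-fold (0.585 on the log2 scale). At control day 2 the ratio of Rps27l was 0.86 (0.70 to 1.03). Rps27 went the other way, from 2119 CPM in control naive to 1776, 2009 and 1721 CPM at days 1 to 3, and its identical copy Rps27rt from 1188 to 209, 222 and 286 CPM.

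Rpl27, a 60S protein, was lower at control day 1 and day 2 than in any other library. It was at 613 CPM in control naive, 381 CPM at day 1, 446 CPM at day 2 and 667 CPM at day 3, and at 676, 821, 919 and 966 CPM in A20 cKO naive and days 1 to 3. The log2 ratio was -0.69 (-0.78 to -0.59) at control day 1 and 0.28 (0.21 to 0.35) at A20 cKO day 1. Rps28, a small 40S protein, was at 1427, 937, 1198 and 1554 CPM in the control libraries and 1680, 2113, 2294 and 2388 CPM in the A20 cKO libraries, with -0.61 (-0.67 to -0.54) at control day 1 and 0.33 (0.29 to 0.37) at A20 cKO day 1. Both have a copy with at most 1 differing coding base, Rpl27-ps3 and Gm10263. Summing Rpl27 with its copy gave 932 CPM in control naive and 442 CPM at day 1, and summing Rps28 with its copy gave 1490 and 945 CPM, so the lower values at day 1 did not reappear in the copies.

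Rpl15, the 60S protein with one of the longest pyrimidine runs shown above, had the same shape without passing 1.5-fold by its own counts. Summed with its near-identical copy Gm10020 it was at 713 CPM in control naive and 471 CPM at day 1, which is past 1.5-fold. Rpl15 alone was at 599, 432, 562 and 810 CPM in the control libraries and 741, 861, 962 and 989 CPM in A20 cKO naive and days 1 to 3. Control day 1 and 2 were the lowest libraries, and these 2 with control naive were those outside the group that shared barcodes.

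Rpl6l had the largest differences of all members. It was at 392 CPM in control naive, 92.4, 93.5 and 113 CPM at control days 1 to 3, 52.6 CPM in A20 cKO naive and 130, 189 and 155 CPM at days 1 to 3. Its log2 ratio was -2.08 (-2.22 to -1.95) at control day 1 and 1.31 (1.11 to 1.51) at A20 cKO day 1. Rpl6, the parent gene of the 60S subunit, was at 1190, 1253, 1580 and 1507 CPM in the control libraries and 1413, 1606, 1718 and 1638 CPM in the A20 cKO libraries, so Rpl6l UMIs per 100 Rpl6 UMIs went from 32.9 in control naive to 7.37 at control day 1 and 3.72 in A20 cKO naive. Like the near-identical copies outside the rule, Rpl6l was highest in control naive and, among A20 cKO libraries, lowest in the naive one.

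**Figure D4:**
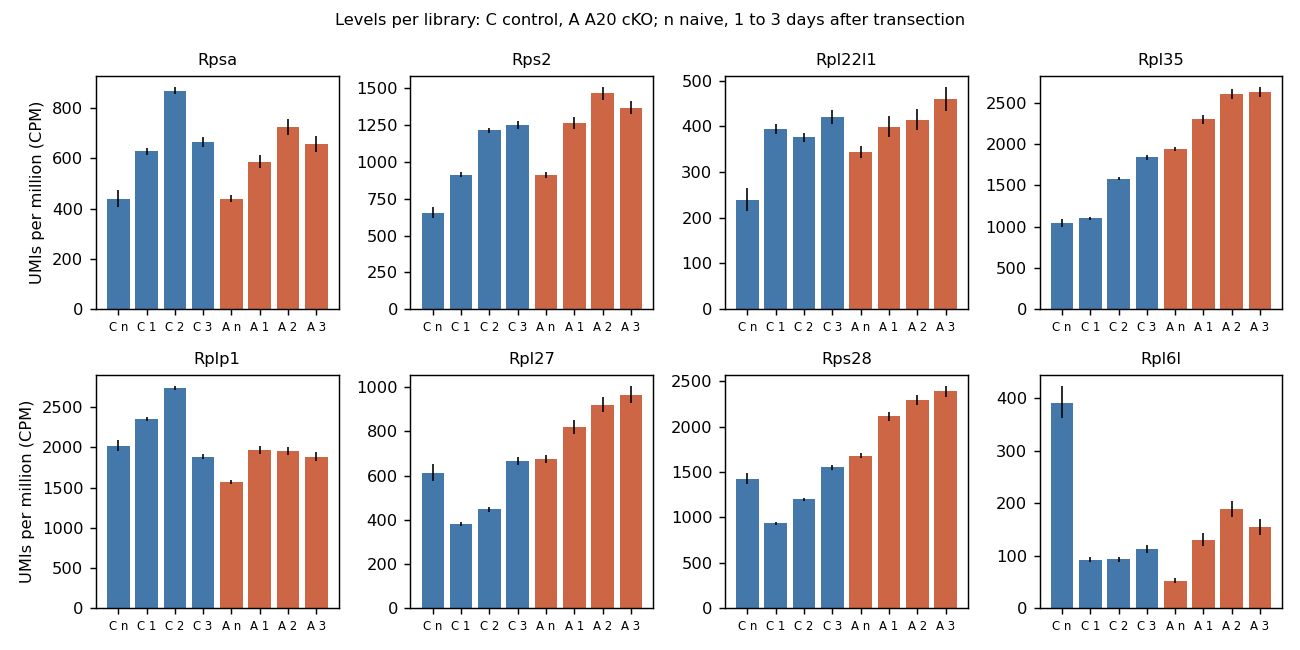
Level (CPM, from 0) of 8 ribosomal protein genes in the control (blue, C) and A20 cKO (orange, A) libraries, naive (n) and days 1 to 3, with 95% counting intervals. Rpsa peaks at day 2 in both genotypes and Rps2 at control day 3 and A20 cKO day 2, Rpl27 and Rps28 are lowest at control day 1, and Rpl6l is at 392 CPM in control naive against 52.6 to 189 CPM elsewhere.

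At control day 2 nearly all members were above control naive by their own counts. The median log2 ratio was 0.44 (0.39 to 0.49) against -0.12 for the 9279 genes compared, and 74 of 81 members were above 0. Of the members, 20 (against 13% of all genes) were at least 1.5-fold higher and 1, Rpl6l, was at least 1.5-fold lower (against 19.8% of all genes). Members without a near-identical copy outside the rule had a median of 0.42 (quartiles 0.33 to 0.60) and those with one 0.45, both without the counts of the copies. With copies summed into their members the median of all was 0.41. Rpl9, Rpl10, Rpl11, Rps7 and Rps12 were then below control naive, though each was above it alone. The 40S and 60S members had medians of 0.45 and 0.43. Core G2/M genes summed to 901 CPM at day 2 against 37.6 CPM in control naive; in cells with no UMI of core cycle genes the median member was still at 0.34.

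Rpsa and Rps2, both of the 40S subunit, were among the leading members at control day 2. Rpsa, the laminin receptor and 40S protein, was at 439 CPM in control naive and 627, 869 and 664 CPM at days 1 to 3, and at 439, 586, 724 and 656 CPM in the A20 cKO libraries. Both naive libraries were at the same level, both genotypes were highest at day 2, and the log2 ratio was 0.99 (0.88 to 1.10) in control and 0.72 (0.65 to 0.80) in A20 cKO mice. Rps2, which has 4 near-identical copies, was at 655, 915, 1216 and 1252 CPM and at 909, 1264, 1466 and 1369 CPM, with 0.89 (0.80 to 0.98) and 0.69 (0.64 to 0.74).

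Rps19, the 40S protein most often mutated in Diamond-Blackfan anaemia, was at 1409, 1778, 2600 and 1997 CPM in the control libraries and 1915, 2314, 2786 and 2796 CPM in the A20 cKO libraries. Rplp0, the base of the stalk, was at 1084, 1393, 1813 and 1745 CPM and at 1457, 1729, 1998 and 1934 CPM. Both were highest at day 2 in each genotype, except Rps19 in A20 cKO mice, where the levels at day 2 and day 3 were close. At the other end, Rpl27 (-0.46) and Rps28 (-0.25) were still below control naive, and Rpl7l1, a nucleolar relative of Rpl7, was at -0.06 (-0.27 to 0.15).

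Members with functions outside the ribosome lay within the range of the others. Rpl5 and Rpl11, which with 5S rRNA can bind Mdm2 and stabilise p53, had log2 ratios of 0.41 (0.28 to 0.54) and 0.31 at control day 2; at control day 1 they were 0.38 (0.25 to 0.51) and -0.09. Rps6, the substrate of S6 kinase, was at 0.45, Rps3, a 40S protein also known from DNA repair, at 0.25, Rpl13a at 0.57 and Rps27a, made as a fusion with ubiquitin, at 0.35. Rpl5 was thus above the median member at day 1 and near it at day 2, while Rpl11 was below it on both days. Rpl11 has the near-identical copies Gm10036 and Gm5093. Summed with them it was at 1467 CPM in control naive, 1059 CPM at day 1 and 1382 CPM at day 2. That sum was below control naive on both days, so the direction of Rpl11 at day 2 is uncertain.

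At control day 3 the members were again closer to control naive, in a comparison that crosses the barcode split. The median was 0.21 (0.12 to 0.31) against 0.07 for the 8302 genes compared, and 70 of 81 members were above 0. Of the members 7 were at least 1.5-fold higher, against 20.3% of all genes, and Rpl6l alone was at least 1.5-fold lower, against 10.3%; with TMM factors 4 were higher, against 18% of all genes. Rps2 led with 0.93 (0.84 to 1.03), followed by Rpl35 with 0.82 (0.74 to 0.89) and Rpl22l1 with 0.81 (0.66 to 0.97). Besides Rpl6l the lowest were Rpl7l1 (-0.43, -0.65 to -0.20) and Rps27 (-0.30, -0.35 to -0.25). On either side of the limit were Rpsa at 0.60 and Rpl13 at 0.58.

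A20 cKO naive against control naive asks what loss of A20 changed without injury, and it also crosses the split. The median member was at 0.14 (0.09 to 0.20) against 0.04 for the 8641 genes compared, with 67 of 81 members above 0. Rpl35 alone was at least 1.5-fold higher (18.8% of all genes were) and Rpl6l alone at least 1.5-fold lower (9.04% of all genes were). With the copies added the summed ratio was 0.09 (0.08 to 0.10), against 0.17 for the members alone.

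Rpl35, a 60S protein at the exit of the peptide tunnel (chromosome 2, 39001580 to 39005624, minus strand), was at 1044, 1099, 1582 and 1838 CPM in control naive and days 1 to 3 and at 1940, 2300, 2606 and 2627 CPM in the A20 cKO libraries. The 5 libraries that shared barcodes were all above the other 3, and the ratio of A20 cKO naive to control naive was 0.89 (0.82 to 0.97). Rpl35 has 3 near-identical copies, which summed to 357 CPM in control naive and 224 CPM in A20 cKO naive. Rplp1, a stalk protein, was the other way round, at 2020, 2358, 2740 and 1887 CPM in the control libraries and 1568, 1972, 1955 and 1884 CPM in the A20 cKO libraries, with a ratio of -0.37 (-0.42 to -0.31) between the naive libraries. Its copy Gm10073 was also lower in A20 cKO naive. Rpl7l1 was at 130 CPM in control naive and 97 CPM in A20 cKO naive (-0.43, -0.64 to -0.20).

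Within A20 cKO mice, where naive and injured libraries lie on the same side of the split, the members were higher at each day and less scattered. At day 1 the median was 0.21 (0.16 to 0.26) against 0.04 for the 8919 genes compared, and 79 of 81 members were above 0. Rpl6l alone was at least 1.5-fold higher (against 7.04% of all genes), and no member was at least 1.5-fold lower (against 5.29%). Rps2 was next at 0.48 (0.42 to 0.53), and Rpl10 (-0.03, -0.08 to 0.01) and Rps9 (-0.02, -0.07 to 0.02) were the lowest, with intervals that held 0. Summed with its near-identical copy Rpl10-ps3, Rpl10 was at 2178 CPM in A20 cKO naive and 2432 CPM at day 1, so its place is uncertain. The dissociation genes went from 3790 CPM in A20 cKO naive to 805 CPM at day 1, opposite to their direction in control mice, and their part in the result was not tested.

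At day 2 of A20 cKO mice all 81 members were above the naive library, with a median of 0.39 (0.35 to 0.44) against -0.07 for the 8921 genes compared. Of these, 6 were at least 1.5-fold higher (7.14% of all genes were) and none at least 1.5-fold lower (10.3% of all genes were). Besides Rpl6l (1.84), the leading members were Rpsa (0.72) and Rps2 (0.69), which also led at control day 2. The lowest were Rpl7l1 (0.02, -0.18 to 0.21), Rps9 (0.16) and Rpl10 (0.16). Summed with Rpl10-ps3, Rpl10 was at 2178 CPM in the naive library and 2819.5 CPM at day 2. With TMM factors 14 members were at least 1.5-fold higher (9.03% of all genes), and with near-identical copies summed into their members 13 were. In cells with no UMI of core cycle genes the median was 0.53. Other lists moved between the naive library and day 2 as well: the 5 microglia markers summed to 8714 and 4883 CPM, the monocyte list to 34.5 and 83.7 CPM, the dissociation genes to 3790 and 730.1 CPM and the core G2/M genes to 300.5 and 1277 CPM. Their part in the result was not tested.

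At day 3 of A20 cKO mice the picture was much the same, with all 81 members above naive and a median of 0.39 (0.34 to 0.45) against -0.10 for the 8797 genes compared. Of the members 5 were at least 1.5-fold higher, against 5.55% of all genes, and none at least 1.5-fold lower, against 9.33%. With TMM factors 18 were at least 1.5-fold higher (7.71% of all genes), and with copies summed into their members 11 were. Rpl6l (1.56), Rps20 (0.68, 0.62 to 0.74) and Rpl12 (0.61, 0.53 to 0.69) led, and Rpl7l1 (0.06), Rps4x (0.15), the X-linked gene of the 40S subunit, and Rps14 (0.19) were lowest. Rps20, a 40S protein, was at 601, 716, 929 and 708 CPM in the control libraries and 764, 933, 1119 and 1225 CPM in the A20 cKO libraries, so that A20 cKO day 3 was the highest library. At day 3 the microglia markers summed to 4901 CPM, the monocyte list to 57.4 CPM, the dissociation genes to 3120 CPM and the core G2/M genes to 699.6 CPM, and their part in the result was not tested.

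Day 3 of A20 cKO mice against day 3 of control mice is the comparison of genotypes within the group that shared barcodes. The median member was at 0.32 (0.27 to 0.36) against -0.12 for the 8488 genes compared, 79 of 81 members were above 0 and 81 of 81 were above the median of all genes. Rps20 (0.79, 0.73 to 0.86) and Rps28 (0.62, 0.57 to 0.66) were at least 1.5-fold higher, against 4.98% of all genes, and no member was at least 1.5-fold lower, against 9.91%. With TMM factors 9 members were at least 1.5-fold higher (6.93% of all genes), and with copies summed into their members 6 were. Rpl27 was next at 0.54 (0.46 to 0.61), outside the limit. Rpsa was at -0.02 (-0.10 to 0.06) and Rpl4 at 0.00 (-0.06 to 0.07), with intervals that held 0. The difference was of many small steps: the quartiles of the members were 0.20 and 0.39. The same 5 microglia markers summed to 8526 CPM in control and 4901 CPM in A20 cKO mice at day 3, and their part in the result was not tested.

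**Figure D5:**
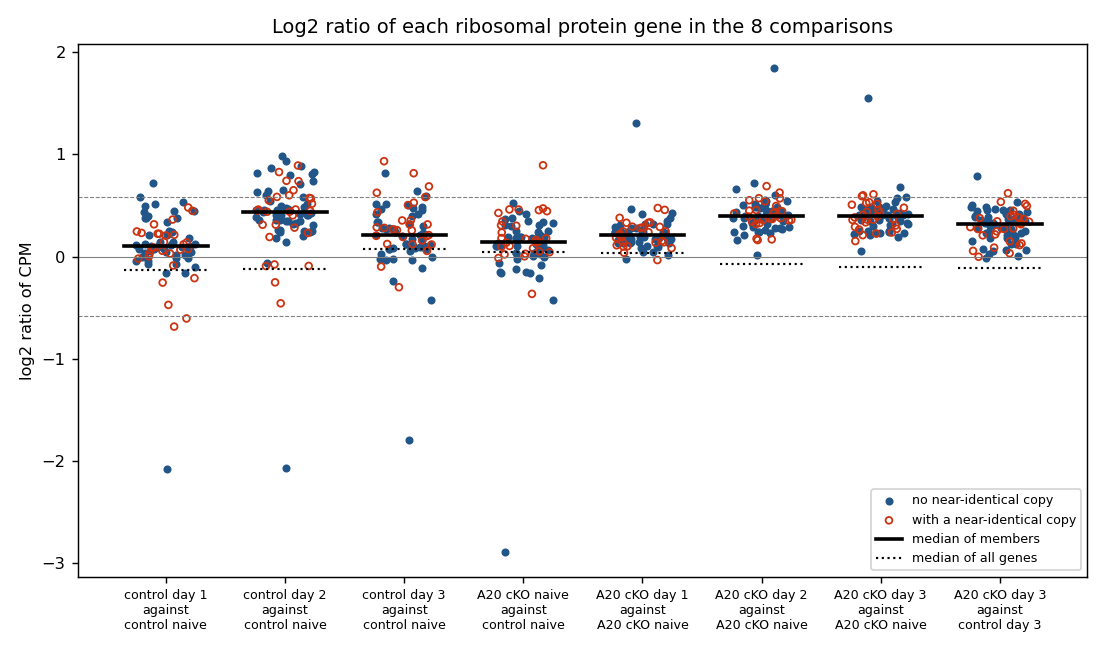
Log2 ratio of CPM for the 81 ribosomal protein genes compared (points; red rings have a near-identical copy) in the 8 comparisons, with the median of the members (bar), the median of all genes (dotted) and the limits of 1.5-fold (dashed). The members' median lies above that of all genes in every comparison, by 0.56 at control day 2 and by 0.10 between the naive libraries, and the single points below -1.7 or above 1.3 are Rpl6l.

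The presence of a pyrimidine run at the annotated start did not separate the members. Over the 60 members with a RefSeq start and enough UMIs, the 29 with a run of at least 5 had a median of 0.43 at control day 2 and the 31 without one 0.42, and at A20 cKO day 2 both medians were near 0.40 (0.40 with and 0.39 without). The largest gap was in the comparison of A20 cKO with control at day 3, 0.37 against 0.28.

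Other genes of translation were taken from lists. Fau encodes a 40S ribosomal protein as a fusion with a ubiquitin-like protein, and its symbol does not match the rule. It was at 2044, 1740, 2216 and 2187 CPM in control naive and days 1 to 3 and at 2425, 2537, 2931 and 3003 CPM in the A20 cKO libraries.

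Of 20 translation factors and other mRNAs with a TOP motif (Eef1a1, Tpt1 and others), 4 were at least 1.5-fold higher and 1 lower at control day 1, 6 and 1 at control day 2, and 2, 4 and 1 higher with none lower at A20 cKO days 1, 2 and 3. Of all genes, 10.6% were higher and 21.4% lower at control day 1, and 13% and 19.8% at control day 2. At A20 cKO days 1, 2 and 3, 7.04%, 7.14% and 5.55% of all genes were higher and 5.29%, 10.3% and 9.33% lower. The median of the 20 was 0.34 at control day 2 and 0.32 at A20 cKO day 2, below the members' 0.44 and 0.39. Eef1a1, the elongation factor that brings aminoacyl-tRNA to the ribosome, was at 1998, 1844, 2022 and 2184 CPM in the control libraries and 2016, 2022, 2477 and 2631 CPM in the A20 cKO libraries. Tpt1 was at 833 to 875 CPM in the control and 779 to 1012 CPM in the A20 cKO libraries.

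The ribosome biogenesis list had its highest sum at day 1 in both genotypes. Of 24 genes on the list (nucleolar proteins, RNA polymerase I subunits and assembly factors), all with enough UMIs, 15 were at least 1.5-fold higher and none lower at control day 1 (against 10.6% and 21.4% of all genes), with a median of 0.73. At control day 2, 9 of 23 were higher (against 13% of all genes), with a median of 0.46. In A20 cKO mice 12 of 23 were higher at day 1 (median 0.59), 2 at day 2 (0.24) and none at day 3 (0.02), against 7.04%, 7.14% and 5.55% of all genes. Ncl, nucleolin, was at 181, 390, 285 and 397 CPM in the control libraries and 309, 518, 417 and 350 CPM in the A20 cKO libraries, and Nop56 of the box C/D snoRNP at 120, 222, 194 and 161 CPM and 153, 281, 197 and 168 CPM. Fbl, the methyltransferase of that complex, was at 131, 180, 156 and 129 CPM and 115, 124, 111 and 133 CPM. Ncl in control mice and Fbl in A20 cKO mice were thus highest at day 3, unlike the list. The sums at day 1 were 2117 CPM in control and 2199 CPM in A20 cKO mice, against 1237 and 1414 CPM in the naive libraries, whereas the member genes had their highest sum at day 2.

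Proteins of the mitochondrial ribosome, a separate particle, had medians above those of the cytosolic members at day 1 and below them at days 2 and 3. Of 76 such genes, 11 were at least 1.5-fold higher and 1 lower at control day 1, with a median of 0.23 against 0.10 for the members, and at A20 cKO day 1 it was 6 and none, with a median of 0.27 against 0.21. Of all genes, 10.6% were higher and 21.4% lower at control day 1, and 7.04% and 5.29% at A20 cKO day 1. Of the 76 mitochondrial ribosomal protein genes, 17 were at least 1.5-fold higher and 1 lower at control day 2, with a median of 0.36 against 0.44 for the members, while at A20 cKO day 2 it was 3 and 1 of 75, with a median of 0.18 against 0.39. Of all genes, 13% were higher and 19.8% lower at control day 2, and 7.14% and 10.3% at A20 cKO day 2. At control day 3 the median of the mitochondrial list was -0.10 against 0.21. At A20 cKO day 3 none of its 75 genes passed in either direction, where 5.55% and 9.33% of all genes were higher and lower. Its median there was 0.05 against 0.39 for the cytosolic members. Mrpl52 was at 280, 313, 336 and 247 CPM in the control libraries and 202, 299, 273 and 225 CPM in the A20 cKO libraries.

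The pseudogene symbols left out by the rule (-ps), many of them also among the near-identical copies, were led by Rpl10-ps3, Rpl23a-ps3 and Rps12-ps3. Rpl10-ps3, identical to Rpl10 over 740 aligned bases, was at 347, 65.1, 65.2 and 714 CPM in control naive and days 1 to 3 and at 510, 803, 954 and 942 CPM in the A20 cKO libraries, so it was low in the 2 control libraries with the most cells and higher in the 5 that shared barcodes. Rpl10 itself was at 1479, 1607, 1689 and 1890 CPM and at 1668, 1629, 1865 and 1964 CPM. At control day 1 all 11 symbols with enough UMIs were at least 1.5-fold lower than in control naive (21.4% of all genes were), and at A20 cKO day 1 all 11 were at least 1.5-fold higher than in A20 cKO naive (7.04% of all genes were).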

How the data were processed

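Per the submitters' processing notes, the authors made the deposited counts with Cell Ranger 2.1.1 on mm10: whole-number UMI counts per gene and cell barcode, not normalized, 1 table per library (10x 3′ kit; 3 mice pooled per library by the study's methods). Their later filtering and integration were not used. Here cells with at least 1000 UMIs, 500 genes and at most 10% mitochondrial UMIs were kept and summed per library. CPM is UMIs per 1000000 of that sum. Log2 ratios had 0.5 UMIs added and needed 100 UMIs over both libraries; 95% intervals are Clopper-Pearson for shares, Poisson for levels and exact conditional for ratios. No test was possible with 1 library per group, and the fold limit of 1.5 replaces one. No doublet caller was run. Comparisons share naive libraries. Named members are the 3 highest and 3 lowest per comparison among those with a mean of at least 50 CPM, the 5 with the most UMIs, fixed paralogs, stalk and extraribosomal members, and the 3 most abundant genes of each other list; Rpl15, Rpl6 and Rpl41's copy were added after their values were seen. Some of these genes are not reported here. Members and lists were chosen with earlier results of these data known. Copies were found with blastn 2.17.0 in GENCODE M21. Ratios and intervals were tested on simulated data. Python 3.11.15, scipy 1.17.1 and, for an alternative scaling, edgeR 4.0.16 were used.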

Additional observations from a re-analysis of the deposited data

Results flagged for a closer look

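For 3 member genes the difference from naive after injury had opposite directions in the 2 genotypes, past 1.5-fold in at least 1 of them and with counting intervals that did not hold 0. With 1 library per group the difference between genotypes was not tested. Rpl6l had log2 ratios of -2.08, -2.07 and -1.79 at days 1, 2 and 3 in control mice and 1.31, 1.84 and 1.56 in A20 cKO mice. Rpl27 had -0.69 in control and 0.28 in A20 cKO mice at day 1, and Rps28 had -0.61 and 0.33. With edgeR TMM factors Rpl27 had -0.53 at control day 1 and 0.25 at A20 cKO day 1 and Rps28 had -0.45 and 0.30, so that neither was past 1.5-fold in control mice, whereas Rpl6l had -1.93 and 1.28. All 3 share long stretches of sequence with another gene, and the near-identical copies outside the rule had opposite directions too, with a summed log2 ratio of -1.72 at control day 1 and 1.06 at A20 cKO day 1. The part of read assignment in these values was not tested.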

How the results depend on the processing

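The share of UMIs from member genes was higher in each library after injury than in the naive library of its genotype in all 9 other settings, but 60 of 72 values moved by more than their narrow counting interval. Without any cell filter it was 8.24% in control naive, 9.79% at control day 3, 9.35% in A20 cKO naive and 10.7% at A20 cKO day 1. With the stricter cell filter (2000 UMIs, 1000 genes, 5% mitochondrial UMIs) it was 8.46, 9.01, 11.4 and 9.96% in control naive and days 1 to 3 and 9.54, 10.9, 12.4 and 12.2% in A20 cKO naive and days 1 to 3. As the mean of per-cell shares it was 8.06, 8.89, 11.1 and 9.36%, and 8.94, 10.3, 12.1 and 12.02% in the same order. With cells thinned to 2000 UMIs it was 8.95, 11.2 and 9.70% at control days 1 to 3, and 9.23, 10.5, 12.4 and 12.2% in A20 cKO naive and days 1 to 3. In cells with no UMI of core cycle genes these values were 8.85, 10.65 and 9.24%, and 9.01, 10.7, 12.96 and 12.3%. Leaving out barcodes found in more than 1 library gave 9.40% in A20 cKO naive and 10.7% at A20 cKO day 1. Without mitochondrial genes and Malat1 in the denominator the shares were 8.79, 9.62, 12.04 and 10.4% in the control libraries and 9.93, 11.3, 12.9 and 12.7% in the A20 cKO libraries. With -ps symbols added they were 8.62, 9.06, 11.4 and 10.01%, and 9.51, 11.1, 12.6 and 12.5%. With the near-identical copies added, a setting chosen after seeing the data, they were 9.15, 9.24, 11.7 and 10.3%, and 9.72, 11.5, 13.1 and 12.96%.

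The median log2 ratio of the members stayed above 0 in all 8 comparisons and 12 other settings, and 77 of 96 values moved by less than the counting interval of the member at the median. With edgeR TMM factors the median was 0.26 for control day 1 and 0.53 for control day 2 against naive, 0.088 between the naive libraries, 0.46 and 0.50 for A20 cKO days 2 and 3 against naive, and 0.43 between the genotypes at day 3. With median-of-ratios size factors these medians were 0.28, 0.57, 0.081, 0.47, 0.50 and 0.43. Both scalings also moved the median of all genes, at control day 1 from -0.13 to 0.03 and 0.06. With the mean of cell CPM the last 3 were 0.44, 0.45 and 0.36, and in cells with no UMI of core cycle genes 0.53, 0.46 and 0.40, with 0.34 for control day 2.

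Counts of members past 1.5-fold were less stable, and 33 of 96 moved by more than 1.5 times. With TMM factors 10 members were higher and 1 lower at control day 1 (15.4% and 14.2% of all genes), and 4 were higher at control day 3 (18%), 14 and 18 at A20 cKO days 2 and 3 (9.03% and 7.71%), and 9 between the genotypes at day 3 (6.93%). With a lower limit (0.32 on the log2 scale), 16, 59 and 25 members were higher at control days 1 to 3 (19.8%, 22.6% and 32.8% of all genes), 16 between the naive libraries (30.8%), 12, 62 and 58 at A20 cKO days 1 to 3 (20%, 17.8% and 13.1%) and 39 between the genotypes at day 3 (12%), while 2 were lower at control day 2 (35.6%), 2 at control day 3 (22.2%) and 3 between the naive libraries (21.5%). With every member that had a UMI, 2 were higher at control day 1 and 2 at A20 cKO day 1, and 2 were lower at control day 3, 2 between the naive libraries and 1 at A20 cKO day 2. With copies summed into their members, 13 and 11 were higher at A20 cKO days 2 and 3 and 6 between the genotypes at day 3, while 6, 2 and 2 were lower at control days 1 to 3. Among members without a copy outside the rule, which include Rpl6 and its near-identical Rpl6l, 3 were higher at control day 3, 0 between the naive libraries, 2 at A20 cKO day 3 and 1 between the genotypes at day 3, and 1, Rpl6l, was lower at control day 1. The smaller number of genes sets part of these last counts, and otherwise the cause was not tested. No paired analysis was possible because each group had 1 library, and for the same reason no library could be left out of a group. A planned setting that added other gene symbols to the members is not reported here.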
